A study of Mus musculus with 6 samples.

Results

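The composition of the *Trav9* family was measured in the 2 libraries of *Trav9* amplicons, 1 from WT BALB/c mice and 1 from SKG mice, out of 6 libraries in the series. All sequences of both libraries were taken, 1587280 from WT and 739330 from SKG, which are 2326610 of the 3675237 sequences in the series, and each was placed by the set of *Trav* genes that its V assignment listed. SKG mice carry a spontaneous point mutation in an SH2 domain of *Zap70*, a kinase of early T cell receptor (TCR) signalling, which leaves a hypomorphic allele. WT and SKG animals descended from a cross of BALB/cJ with SKG mice whose WT and SKG offspring were then bred as separate lines. Neither the age of the animals nor the number of animals behind each library is given in the sources used here. RNA was taken from pre-selection double-positive (DP) thymocytes, sorted as CD4+CD8α+ cells without TCRβ, CD69 or CD5, although the labels name genomic DNA as the molecule. The lists hold no expression values, so the sorted cell type could not be checked against markers.

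The TCR α chain is assembled in DP thymocytes by joining a *Trav* segment to a *Traj* segment. Successive rounds on the same chromosome reach *Trav* segments further upstream and *Traj* segments further downstream, and continue until the cell is selected or dies. Part of the mouse *Trav* array is repeated, so that many *Trav* families, *Trav9* among them, hold closely similar copies that are marked d or n in their names. In the study, *Trav9d-3* served as a *Trav* segment towards the distal end of the array when *Traj* usage was compared between WT and SKG cells, whereas the make-up of the amplicon itself is described here.

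The amplicon ran from a forward primer in the *Trav* segment to the constant region, so the genes could be told apart only by the V bases downstream of the primer. In the NCBIM37 mouse assembly, which is not that of BALB/c, 8 of 11 annotated *Trav9* segments held the same 20 bases at the primer site. *Trav9-1*, *Trav9d-1* and *Trav9n-1* differed from these bases at 4 positions each. The site was located by the last bases of the primer, and mismatches to the full primer were not counted. All 11 segments lie on the plus strand of chromosome 14, and the site lies in exon 2 of each, the exon that encodes most of the V region. The V bases that follow the site are shown for 5 of the genes that made up the libraries, because the V assignments rest on this stretch. The assignments used the reference alleles of the assignment program, to which these NCBIM37 sequences were not matched. Older annotation names were matched to gene symbols through RefSeq. *Trav9-3* could not be matched and is not among the 11 segments, so its sequence, position and primer site were not checked. Capitals mark the 10 aligned positions at which the 5 genes differ.
*Trav9d-2* (chr14:53512159-53512293): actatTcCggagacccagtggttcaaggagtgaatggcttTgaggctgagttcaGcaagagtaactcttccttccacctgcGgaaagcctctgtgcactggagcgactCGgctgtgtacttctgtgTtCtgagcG
*Trav9d-3* (chr14:53540653-53540787): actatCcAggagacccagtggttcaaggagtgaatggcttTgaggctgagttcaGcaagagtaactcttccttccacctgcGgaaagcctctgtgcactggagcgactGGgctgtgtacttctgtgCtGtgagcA
*Trav9d-4* (chr14:53603431-53603535): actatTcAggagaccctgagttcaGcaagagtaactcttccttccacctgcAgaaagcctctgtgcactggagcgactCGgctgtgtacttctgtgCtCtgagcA
*Trav9-2* (chr14:54211055-54211189): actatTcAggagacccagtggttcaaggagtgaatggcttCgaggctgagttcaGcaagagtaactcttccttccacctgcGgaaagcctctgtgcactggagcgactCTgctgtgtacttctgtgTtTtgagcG
*Trav9-4* (chr14:54296171-54296305): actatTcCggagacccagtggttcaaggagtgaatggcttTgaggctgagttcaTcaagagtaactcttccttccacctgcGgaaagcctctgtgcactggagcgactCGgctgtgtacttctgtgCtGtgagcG

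Few letters separated these genes. Counted from 1 at the first base after the primer, *Trav9d-2* differed from *Trav9-4* by G55T, T127C and C129G, with the base of *Trav9d-2* written first. It differed from *Trav9-2* by C8A, T41C, G110T and C129T, and from *Trav9d-3* at 6 positions. In this assembly *Trav9d-4* lacked 30 of the 135 bases and differed from *Trav9d-2* at 4 of the 105 that remained. *Trav9d-2* and *Trav9n-2* were identical over the whole stretch, and so were *Trav9d-3* and *Trav9n-3*. Of the genes shown, those with a d end between 1171 kb (*Trav9d-4*) and 1262 kb (*Trav9d-2*) before *Traj61*, the most upstream *Traj* segment, whereas *Trav9-2* and *Trav9-4* end 563.5 kb and 478.4 kb before it.

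Every V assignment in both libraries listed *Trav9* genes only. The sequences fell into 76 gene sets, 8 of a single gene and 68 of several genes, and 25 sets with at least 100 sequences over both libraries were tested. The other 51 sets held 531 WT and 182 SKG sequences. There was 1 library per genotype, so no difference has a replicate check, and each two-sided Fisher's exact test on numbers of sequences compares these libraries and not the genotypes. The 95% confidence intervals (CI, Wilson) hold counting error alone, since amplified reads that lack molecular identifiers do not stand for separate molecules. Each distinct sequence was counted once, so a share is a share neither of reads nor of cells. The difference between the libraries in a gene's share varied from one *Traj* segment to the next by more than binomial counting allows, with a variance 23.7 to 54.7 times the binomial one for the 6 main genes. The main comparisons are therefore also given with the standard error (SE) widened by this spread, called the scaled SE, and with the 95% interval it gives. This spread lies between *Traj* segments of the same libraries, so the scaled interval holds no variation between animals or between libraries of a genotype.

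The most marked difference was in *Trav9d-2*, whose share of sequences was lower in SKG, while *Trav9-3* and *Trav9d-3* took larger shares. *Trav9d-2* made up 11.8% of WT sequences (95% CI 11.7 to 11.8) and 6.98% of SKG sequences (6.92 to 7.04). These shares correspond to 187192 and 51608 sequences. The difference was −4.81 percentage points (scaled SE 0.236, 95% interval −5.28 to −4.35), and the ratio of SKG to WT was 0.592. *Trav9d-2* was the fifth gene by share in WT and the last of the 6 in SKG, and the 2 intervals were far apart.

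*Trav9-3*, the most frequent gene in both libraries, rose from 24.5% of WT to 27.8% of SKG sequences (3.28 points, scaled SE 0.443, interval 2.41 to 4.15). *Trav9d-3* rose from 16.6% to 19.8% (3.23 points, scaled SE 0.268, interval 2.70 to 3.75). *Trav9d-4* rose from 8.75% to 9.95% (1.2 points, scaled SE 0.257, interval 0.694 to 1.70). The largest of these 3 rises relative to WT was that of *Trav9d-3*, with a ratio of 1.19. *Trav9-2* fell from 13.2% to 11.3% (−1.90 points, scaled SE 0.338, interval −2.57 to −1.24). *Trav9-4* was at 21.8% in WT and 21.1% in SKG, a difference of −0.726 points that passed Fisher's exact test (adjusted p = 1.71e-35) but not the scaled comparison (scaled SE 0.412, adjusted p = 0.15). The scaled interval of that difference ran from −1.53 to 0.0812 points.

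By Fisher's exact test with Benjamini-Hochberg adjustment, the 6 main genes passed in 6 of 6 cases, 3 higher and 3 lower in SKG, where 60% of the 25 tested sets passed. With the scaled SE 5 of 6 passed, against 40% of the tested sets. Past a 1.5-fold difference in either direction lay 1 of the 6, *Trav9d-2*, against 16% of the tested sets.

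**Figure D1:**
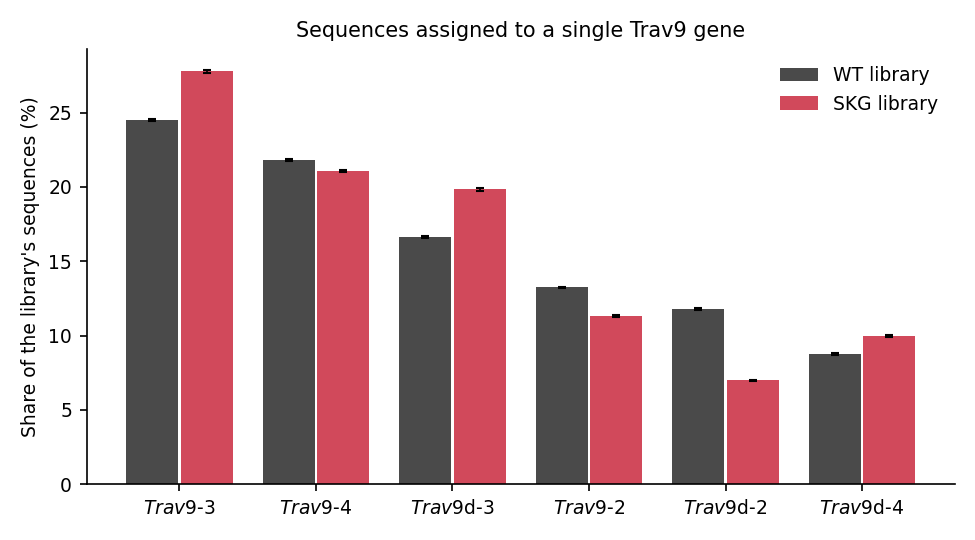
Bars give the share of all sequences of a library, in percent, whose V assignment listed that *Trav9* gene alone, in the WT (grey) and the SKG (red) library. Error bars are 95% Wilson intervals of counting error, with 1 library per genotype. *Trav9d-2* stands at 11.8% in WT and 6.98% in SKG, below *Trav9d-4* in the latter.

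The 6 genes listed alone accounted for 96.7% of WT and 96.9% of SKG sequences, so a lower share of one of them goes with higher shares elsewhere. Shares were therefore also taken over the other 5 genes with *Trav9d-2* left out. *Trav9-3* was then at 28.8% in WT and 30.9% in SKG, *Trav9d-3* at 19.6% and 22.1%, and *Trav9d-4* at 10.3% and 11.1%. *Trav9-4* was at 25.7% and 23.4%, and *Trav9-2* at 15.6% and 12.6%. All 5 kept the direction they had in the whole library. The direction of *Trav9-4* turned when *Trav9d-3* (0.105 points) or *Trav9-3* (0.268 points) was left out instead.

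The decrease was not shared by the other d genes. The d genes together made up 37.2% of WT and 36.8% of SKG sequences, and the genes without a letter 59.6% and 60.3%. Within the d group, the number of *Trav9d-2* sequences per *Trav9d-3* sequence was 0.710 in WT and 0.352 in SKG, while *Trav9d-3* per *Trav9d-4* was 1.90 and 1.99. No sequence in either library was assigned to an n gene alone, which allows a share of such assignments of up to 0.000189% in WT and 0.000406% in SKG. This describes the assignments and not the n genes themselves. In NCBIM37, *Trav9n-2* and *Trav9n-3* matched *Trav9d-2* and *Trav9d-3* over the whole stretch. Whether assignments to these d genes include n copies was not tested. An n gene stood beside other genes in 0.232% of WT and 0.221% of SKG sequences, nearly always *Trav9n-2*, with 3664 and 1617 sequences. All of these *Trav9n-2* sequences also listed *Trav9d-4*. Only 72 WT and 19 SKG sequences listed *Trav9n-2* with *Trav9d-2*, although these genes were identical in NCBIM37.

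*Traj* usage was more distal for the d genes than for the genes without a letter in both libraries. Of sequences with *Trav9d-4*, *Trav9d-2* and *Trav9d-3*, 61.5%, 58.2% and 57.9% used the distal segments *Traj1* to *Traj30* in WT, against 30.1% with *Trav9-2*, 26.6% with *Trav9-3* and 15.9% with *Trav9-4*. In SKG the shares were 66.1%, 62.4% and 62.5% for these d genes and 38.6%, 30.3% and 19.6% for the others. The distal share was thus higher in SKG for each of the 6 genes, a description with no test. Because the 2 libraries differed in *Traj* usage, the gene shares were compared within *Traj* segments.

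*Trav9d-2* had the lower share in SKG at 43 of the 43 *Traj* segments that had 1000 or more sequences in both libraries, and at 33 of them the share was more than 1.5-fold lower. The median ratio of SKG to WT over the segments was 0.602. The lowest ratio was 0.340 at *Traj5*, where *Trav9d-2* made up 28.0% of WT and 9.53% of SKG sequences. The highest was 0.834 at *Traj38*, with 4.03% and 3.36%. The segments share the same 2 libraries and are no replicates of a genotype. None of the other 5 genes lay on the same side at all segments. *Trav9-3* and *Trav9d-3* were each higher at 38 of 43, *Trav9d-4* and *Trav9-4* each higher at 27, and *Trav9-2* lower at 28. *Trav9-4* was higher in SKG at most segments and lower over the whole library. Its share over *Traj1* to *Traj30* was 9.36% in WT and 9.94% in SKG, and over *Traj31* to *Traj61* it was 29.1% and 29.0%. *Trav9d-2* differed in the same direction in both regions, from 18.6% to 10.5% over distal and from 7.81% to 4.48% over proximal segments. *Trav9-2* differed little over distal segments, with 10.8% and 10.5% (−0.255 points), and more over proximal ones, with 14.7% and 11.9% (−2.77 points). For *Trav9d-3* the rise was 3.83 points over distal and 1.65 points over proximal segments, and for *Trav9d-4* it was 1.29 and 0.425 points. With the *Traj* make-up of SKG set to that of WT, *Trav9d-4* was at 9.15% in SKG, 0.4 points above WT. Without *Traj52*, the *Trav9-4* difference over the library was −0.423 points, and without *Traj5* that of *Trav9d-2* was −4.65 points.

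**Figure D2:**
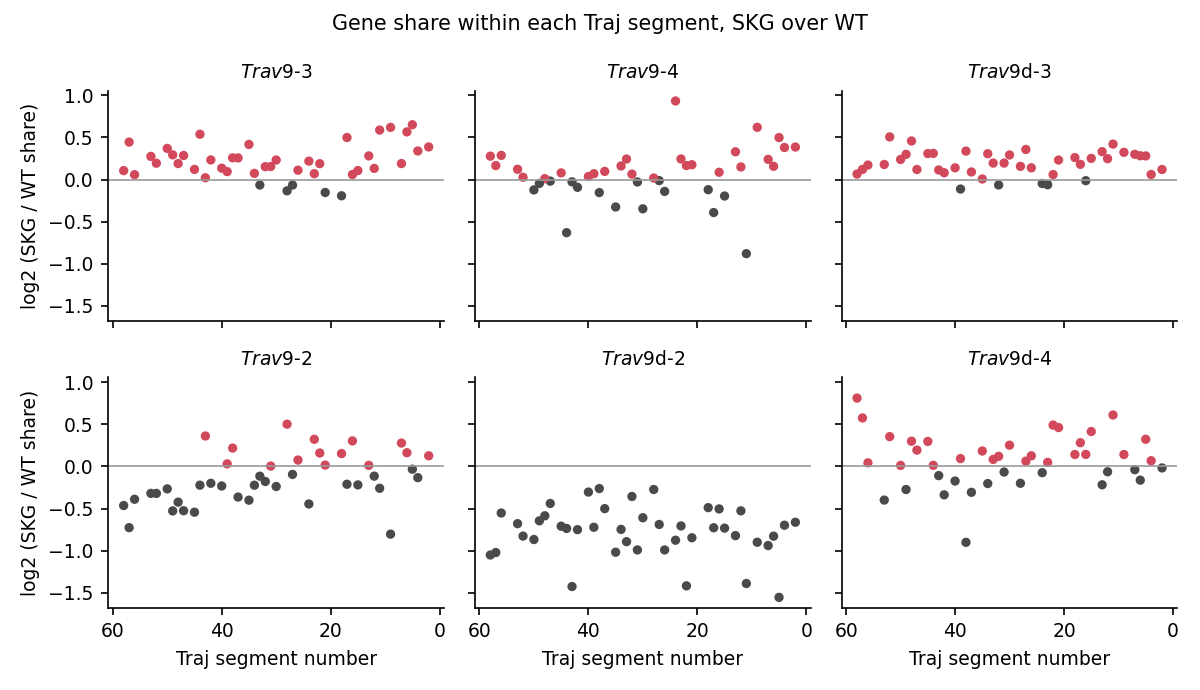
Each point is 1 *Traj* segment with at least 1000 sequences in both libraries, placed by its number (horizontal axis, upstream segments to the left) and by the log2 ratio of the gene's share in SKG to that in WT at that segment, with 1 panel per gene. Red points lie above 0 and grey points below, and the 43 points of *Trav9d-2* are all below 0, with a median of −0.73.

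The difference in *Trav9d-2* was not the same for the alleles listed. Allele assignments compare a sequence with the reference alleles of the assignment program, and several alleles are listed where the sequence cannot separate them. *Trav9-2*, *Trav9-4* and *Trav9d-3* were listed with their allele 01 in every sequence. *Trav9-3* was listed with its alleles 01, 02 and 03 together in all but 1 sequence, and *Trav9d-4* with its allele 01 in 99.99% of WT and nearly all SKG sequences. *Trav9d-2* was the only one of the 6 genes with more than 1 call above 1%. Its alleles 02 and 03 were listed together in 93.1% of its WT and 90.3% of its SKG sequences. Its allele 01 was listed in 6.70% and 9.56%, that is 12534 and 4934 sequences, a rise of 2.86 points (scaled SE 0.162, interval 2.55 to 3.18). Leaving out calls that list several alleles removes most of the gene, as the joint call of alleles 02 and 03 held 174311 WT and 46602 SKG sequences. Allele 01 made up 98.6% and 99.4% of the few remaining sequences, a rise of 0.815 points.

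Relative to the whole library, both calls of *Trav9d-2* had smaller shares in SKG, but not to the same extent. Alleles 02 and 03 together fell from 11.0% of WT to 6.3% of SKG sequences, a ratio of 0.574, and allele 01 went from 0.79% to 0.667%, a ratio of 0.845. Of 6 allele calls tested, 66.7% passed Fisher's exact test, 3 of the 4 within *Trav9d-2*. The 2 calls also differed in *Traj* usage, since 51.7% of allele 01 and 58.7% of allele 02 and 03 sequences used distal *Traj* segments in WT, and 54.6% and 63.3% did so in SKG. Their company differed in mixed assignments, in which *Trav9d-2* allele 01 stood with *Trav9-4* in 3708 WT and 1338 SKG sequences, and allele 02 with *Trav9-4* in 9 and 8. With *Trav9-3* the order was the opposite, with 9859 and 3988 sequences for allele 02 and 849 and 407 for allele 01.

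Sequences are called productive when the joined chain is in frame and free of stop codons. The productive share was higher in SKG for 5 of the 6 genes and was not higher for *Trav9d-2*. Over all sequences it was 63.2% in WT and 69.8% in SKG, a rise of 6.56 points (scaled SE 0.48). *Trav9d-3* rose most among the 6, from 61% to 70.1% (9.03 points, scaled SE 0.967). *Trav9-3* rose from 61.2% to 69.7% (8.53 points, scaled SE 0.703), *Trav9d-4* from 61% to 68.7%, *Trav9-4* from 63.1% to 70.4%, and *Trav9-2* from 67.3% to 72.2%. These 5 genes passed both Fisher's exact test and the scaled comparison, where 76% of 25 and 63.6% of 11 tested gene sets passed in that direction.

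*Trav9d-2* was productive in 68.2% of its WT sequences (95% CI 68.0 to 68.4) and in 65.7% of its SKG sequences (65.3 to 66.1). The difference of −2.44 points passed Fisher's exact test (adjusted p = 6.29e-25), but not the scaled comparison (scaled SE 1.2, adjusted p = 0.0565). It was −1.41 points over distal and −3.82 points over proximal segments, and −1.51 points over every sequence that listed the gene. At the 42 *Traj* segments with at least 200 *Trav9d-2* sequences in each library, the productive share was higher in SKG at 21 and lower at 21. For *Trav9-3* and *Trav9d-3* it was higher at 39 of 43 each. *Trav9d-2* thus had the highest productive share of the 6 genes in WT and the lowest in SKG.

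The change of the productive share of *Trav9d-2* was set against that of each other gene, with the scaled errors combined. Less that of *Trav9d-3* it came to −11.5 points (95% interval −14.5 to −8.45). The change of *Trav9-2*, the gene nearest to it, was 7.36 points above that of *Trav9d-2* (4.18 to 10.5). All 5 such differences share the change of *Trav9d-2*, so they do not count as separate results. The intervals of all 5 left out 0, and so did those of 2 of the 10 pairs without *Trav9d-2*, unadjusted for the number of pairs. Both of the latter involved *Trav9-2*, against *Trav9-3* and *Trav9d-3*.

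Accordingly, the lower share of *Trav9d-2* in SKG differed in size between the classes. Among productive sequences it was 12.7% in WT and 6.57% in SKG, a ratio of 0.517. Among unproductive sequences it was 10.2% and 7.92%, a ratio of 0.776. *Trav9d-3* was at 16.0% and 19.9% of productive and at 17.6% and 19.7% of unproductive sequences, so that it was higher in SKG in both classes. *Trav9-3* was at 23.7% and 27.7% of productive and at 25.9% and 27.9% of unproductive sequences. When the SKG gene sets were weighted to their WT shares, the productive share of all SKG sequences was 69.7%, against 69.8% as found, and the difference from WT was 6.42 points. In the *Trav11* libraries the productive share was 55.2% in WT and 55.7% in SKG, and in the *Trav19* libraries 55.5% and 64.5%.

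**Figure D3:**
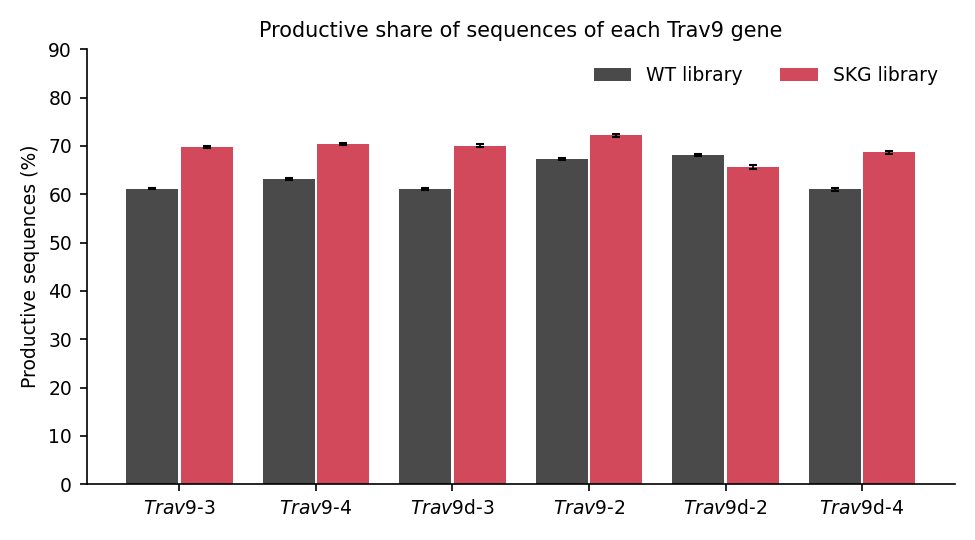
Bars give the productive share, in percent, of the sequences assigned to each *Trav9* gene alone in the WT (grey) and SKG (red) library, with 95% Wilson intervals of counting error as error bars. For 5 genes the SKG bar is the higher, and for *Trav9d-2* it is the lower, at 65.7% against 68.2%.

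Assignments that listed several genes were uncommon. They made up 3.24% of WT (95% CI 3.21 to 3.27) and 2.96% of SKG sequences (2.93 to 3.0), a difference of −0.277 points (scaled SE 0.102, interval −0.478 to −0.0762). The difference was −0.014 points over distal and −0.424 points over proximal *Traj* segments. By comparison, 99.9% of sequences in both *Trav11* libraries and at most 0.0778% in the *Trav19* libraries listed several genes. Pairs made up 3.07% of WT and 2.84% of SKG sequences, and sets of 3 or more genes 0.168% and 0.128%. The productive share of these sequences was 62.9% in WT and 68.5% in SKG, a rise of 5.61 points (scaled SE 1.04).

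Shared listings did not simply follow the number of letters that differ in NCBIM37. The alleles used for the assignments may differ at other positions, so this describes the sequences shown only. *Trav9d-2* was listed with *Trav9-4* (3 differences), mostly as allele 01, in 3832 WT and 1384 SKG sequences, and with *Trav9-2* (4 differences) in 115 and 45. *Trav9-2* and *Trav9-4* (6 differences) were listed together in 1290 and 363. *Trav9-4* and *Trav9d-4*, which differ at 5 positions beside the missing bases, were listed together most often among the 5 genes shown, in 10121 and 4526 sequences. The most frequent pair was *Trav9-3* with *Trav9d-4*, at 0.945% of WT and 0.847% of SKG sequences, a difference of −0.0984 points that did not pass the scaled comparison (interval −0.229 to 0.0323). The pair of *Trav9-3* and *Trav9d-2* was at 0.675% and 0.594% (−0.0802 points, scaled SE 0.0114, interval −0.103 to −0.0578). The pair of *Trav9-4* and *Trav9d-4* was at 0.609% and 0.589% and passed neither Fisher's exact test (adjusted p = 0.0883) nor the scaled comparison (adjusted p = 0.709).

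Of the 17 tested sets of several genes, 11 had a lower and 6 a higher share in SKG. By Fisher's exact test 5 of the lower and 3 of the higher ones passed, and with the scaled SE 3 and 2 did. The sets past a 1.5-fold difference were *Trav9-2* with *Trav9-4*, at 0.0776% of WT and 0.0469% of SKG sequences (ratio 0.605), and *Trav9d-3* with *Trav9d-4*, at 0.0411% and 0.0709% (ratio 1.73). These were named after their values were seen. Of 10 tested pairs made of the 6 main genes, 5 had a ratio of SKG to WT between those of their own genes, 3 a ratio below both and 2 a ratio above both. The pair of *Trav9-3* and *Trav9d-4* was among the lower ones, with a ratio of 0.896, although each gene alone had a larger share in SKG, but its own difference from WT did not pass the scaled comparison.

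The share of a gene's listings that it held together with other genes also differed between the genes. It was 18.1% in WT and 15.5% in SKG for *Trav9d-4*, 7.52% and 5.95% for *Trav9-3*, and 0.761% and 0.87% for *Trav9d-3*. For *Trav9d-2* it rose from 7.92% (95% CI 7.80 to 8.04) to 11.1% (10.9 to 11.4), because sequences assigned to it alone had the ratio of 0.592 and its pairs with *Trav9-3* and *Trav9-4* ratios of 0.881 and 0.778. In *Traj* usage the pair of *Trav9-3* and *Trav9d-2* lay near *Trav9-3*, with 29.4% distal in WT and 31.7% in SKG. The pair of *Trav9-4* and *Trav9d-4* lay between its genes, with 35.4% in WT and 49.4% in SKG.

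**Figure D4:**
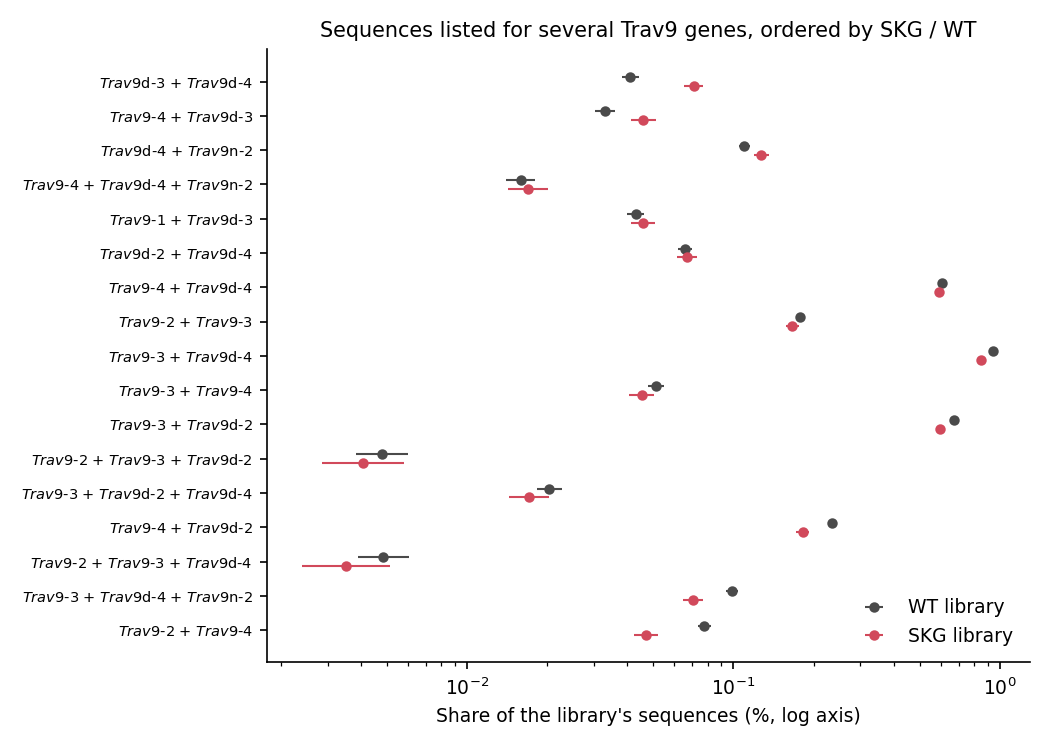
Points give the share of all sequences, in percent on a log axis, for each of the 17 tested sets of several *Trav9* genes in the WT (grey) and SKG (red) library, ordered from the highest ratio of SKG to WT (top) to the lowest. Horizontal lines are 95% Wilson intervals of counting error. *Trav9d-3* with *Trav9d-4* stands at the top, with 0.0411% in WT and 0.0709% in SKG, and *Trav9-2* with *Trav9-4* at the bottom.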

How the data were processed

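Sequences were analysed from 1 WT and 1 SKG library of *Trav9* amplicons, grouped by the labels. According to the methods, the authors obtained clonal sequences from the read pairs with MiXCR, took off primers with cutadapt 1.13 and dropped exact duplicates. V and J genes and functionality were then called with IMGT/HighV-QUEST, to which large libraries were passed in pieces. Each deposited list names a sequence, its class, its V call and its J call, and holds no read counts. Removing duplicates evens out abundant rearrangements but keeps copies that differ by an error. The labels name mm10, and the lists hold no coordinates.

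Sequences were counted per set of V genes. Shares were compared with two-sided Fisher's exact tests, p-values below 1e-300 being set to that number, with Benjamini-Hochberg adjustment over sets with at least 100 sequences over both libraries. The scaled comparison multiplied the binomial variance by the Pearson dispersion of a logistic model with terms for *Traj* segment (at least 50 sequences in each library) and library, and used a normal approximation. The calculations were tested on simulated data. Named were genes alone in at least 0.1%, sets of several genes in at least 0.5% and alleles in at least 1% of a gene's sequences in either library. The genes, lists and tests were chosen with earlier results of these data known. Depth was 1587280 and 739330 sequences, so that 3 sequences are a share of 0.000189% and 0.000406%. Germline stretches came from NCBIM37 with the GENCODE annotation, symbols from the RefSeq table of GRCm38.p6, and were aligned with MAFFT 7.526. Python 3.11.15, numpy 2.4.6, pandas 2.3.3, scipy 1.17.1 and matplotlib 3.10.9 were used.

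Alternatives were other functionality classes, denominators, rules for several listed genes, *Traj* regions, a *Traj* make-up set to that of WT, and the scaled variance. Leaving out 1 *Traj* segment was added after seeing the data. Junction sequences were not analysed here.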

Additional observations from a re-analysis of the deposited data

How the results depend on the processing

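Of 146 comparisons under alternative settings, 127 kept their direction and their side of the threshold, 12 kept the direction but no longer passed, 3 passed where they had not, and 4 turned. The lower share of *Trav9d-2* in SKG kept its direction and passed under every alternative run, between −8.07 and −2.29 points. *Trav9-4* turned to 0.577 points over *Traj1* to *Traj30* and to 0.735 points with the *Traj* make-up set to that of WT, and did not pass over *Traj31* to *Traj61* (−0.124 points) or with the scaled variance (−0.726 points). The pair of *Trav9-4* and *Trav9d-4* turned to 0.0648 points among unproductive sequences and to 0.119 points over *Traj1* to *Traj30*. Below the threshold fell the share of sequences listing several genes over *Traj1* to *Traj30* (−0.014 points) and allele 01 of *Trav9d-4* among unproductive sequences (0.00674 points). So did the productive share of *Trav9d-2* with the scaled variance (−2.44 points). The rest that no longer passed were shares or productive shares of the pairs of *Trav9-3* and *Trav9-4* with *Trav9d-4*. For the *Trav9-3* alleles the scaled comparison gave no p-value, and this case was counted among those that kept their side. The causes were not tested. No paired analysis was possible because there was 1 library per genotype. The libraries also differed in depth, with 1587280 WT and 739330 SKG sequences. Animals, library preparation, depth and genotype cannot be told apart here.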

Other observations

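*Trav9-1* and *Trav9d-1*, which differ at 4 positions from the primer site shared by most segments in the reference, were rare in both libraries. *Trav9-1* was listed alone in 0.0839% of WT and 0.0887% of SKG sequences, with a productive share of 53.7% of 1331 sequences in WT and 69.8% of 656 in SKG. *Trav9d-1* was listed alone in 0.0134% and 0.0216%, and 34.9% of its 212 WT sequences (95% CI 28.8 to 41.5) against 81.9% of its 160 SKG sequences (75.2 to 87.1) were productive. The set of *Trav9-4*, *Trav9d-4* and *Trav9n-2* was productive in 23.8% of 252 WT and 76.0% of 125 SKG sequences. These sets were chosen after their values were seen. *Trav9d-3* and *Trav9n-3* had identical V bases after the primer in the reference, yet they were not listed together in any sequence. *Trav9n-3* was listed in 15 WT and 7 SKG sequences, always beside *Trav9-3*. *Trav9d-3* was listed alone in 263610 and 146647.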
